A study of Mus musculus with 6 samples.

Results

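The mRNAs of the enzymes that write and erase N6-methyladenosine (m6A), a methyl mark on adenosines of RNA, were examined in mouse testis. They are 10 genes of the 14000 in the deposited table and 20 of its 27120 transcripts. They were listed by their function, with earlier results of these data known. Mettl3 and Mettl14 form the methyltransferase core, Wtap, Virma, Rbm15, Rbm15b, Zc3h13 and Cbll1 are the 6 regulatory subunits, and Alkbh5 and Fto are the 2 erasers. All 10 were found, all 20 transcripts are annotated as protein coding, and the annotation holds 54 transcripts of these genes.

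Testis RNA came from wild-type C57BL/6N males, with 6 libraries in 2 groups of 3. HFD1D males (labelled H+Cd) were sons of fathers fed a high-fat diet (HFD) between weeks 5 and 15 of age. The HFD2D males (labelled H+H+Cd) were 1 generation further down, and both their father and their paternal grandfather had received the diet. For 10 weeks the males of both groups received cadmium chloride (CdCl2), which is toxic to the testis, in drinking water. Each of the 6 thus had a paternal HFD history and cadmium, and groups without either were not analysed here. The number of HFD generations and the generation of the mice go together and cannot be told apart. By the methods of the study, no more than 1 male was taken per litter.

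The writer complex works in the nucleus on nascent RNA. METTL3 carries the catalytic site and transfers a methyl group from S-adenosylmethionine, METTL14 supports it and helps to hold the RNA, and the other subunits place the core at particular RNAs. ALKBH5 and FTO are iron- and oxoglutarate-dependent oxygenases that remove methyl groups from RNA, FTO also from the cap-adjacent nucleotide m6Am. In mice, loss of Mettl3 or Mettl14 in germ cells depletes spermatogonia, and males without Alkbh5 make few and abnormal sperm.

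Of the 10 genes, 4 had 1 listed transcript (Mettl3, Rbm15, Rbm15b and Alkbh5) and 6 had several. The transcripts of Mettl14 and Cbll1 are shown first, since some of them did not overlap between groups. All sequences are from the GENCODE M21 transcripts. Mettl14-201 has 11 exons and encodes 456 residues, whereas Mettl14-204 has 10 exons, reads into the last intron and encodes 377 residues. Each line gives the last bases of shared coding sequence in lower case, and the capitals are the bases that follow in that transcript (mm10, minus strand, chr3:123369661-123371295 for the former, intron spliced out, and chr3:123371245-123371295 for the latter).
Mettl14-201: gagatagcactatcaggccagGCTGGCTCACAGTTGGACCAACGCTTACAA
Mettl14-204: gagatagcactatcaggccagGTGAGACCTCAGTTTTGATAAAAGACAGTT

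The 4 listed transcripts of Cbll1 differ at the junction of exons 2 and 3 (chr12:31492159-31494608, minus strand, intron spliced out). The capitals are the bases that not all 4 share. Cbll1-203 and Cbll1-204 use 9 more bases of exon 2, and Cbll1-201 and Cbll1-203 use 3 more bases of exon 3. The proteins of Cbll1-201, Cbll1-203 and Cbll1-204 have 488, 491 and 490 residues, and that of Cbll1-205 has 332, since a further intron is removed from its last exon. Short differences of this kind leave few fragments to tell the transcripts apart.
Cbll1-201: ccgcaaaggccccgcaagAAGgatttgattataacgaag
Cbll1-203: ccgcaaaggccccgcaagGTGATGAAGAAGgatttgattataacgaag
Cbll1-204: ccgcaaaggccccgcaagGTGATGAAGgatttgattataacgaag
Cbll1-205: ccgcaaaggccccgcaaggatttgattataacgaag

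Wtap is shown because its transcripts changed places between libraries of the same group. Wtap-201 and Wtap-203 share 1 coding sequence of 396 residues and differ in untranslated sequence, chiefly the first exon, and Wtap-205 ends after exon 6 with 151 residues. The capitals in the Wtap lines follow the last shared coding base, and those of Wtap-205 end with its stop codon (minus strand, chr17:12969530-12975316 with the intron spliced out and chr17:12975292-12975316).
Wtap-201: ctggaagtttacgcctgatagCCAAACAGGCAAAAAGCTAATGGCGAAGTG
Wtap-205: ctggaagtttacgcctgatagGTAA

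**Figure D1:**
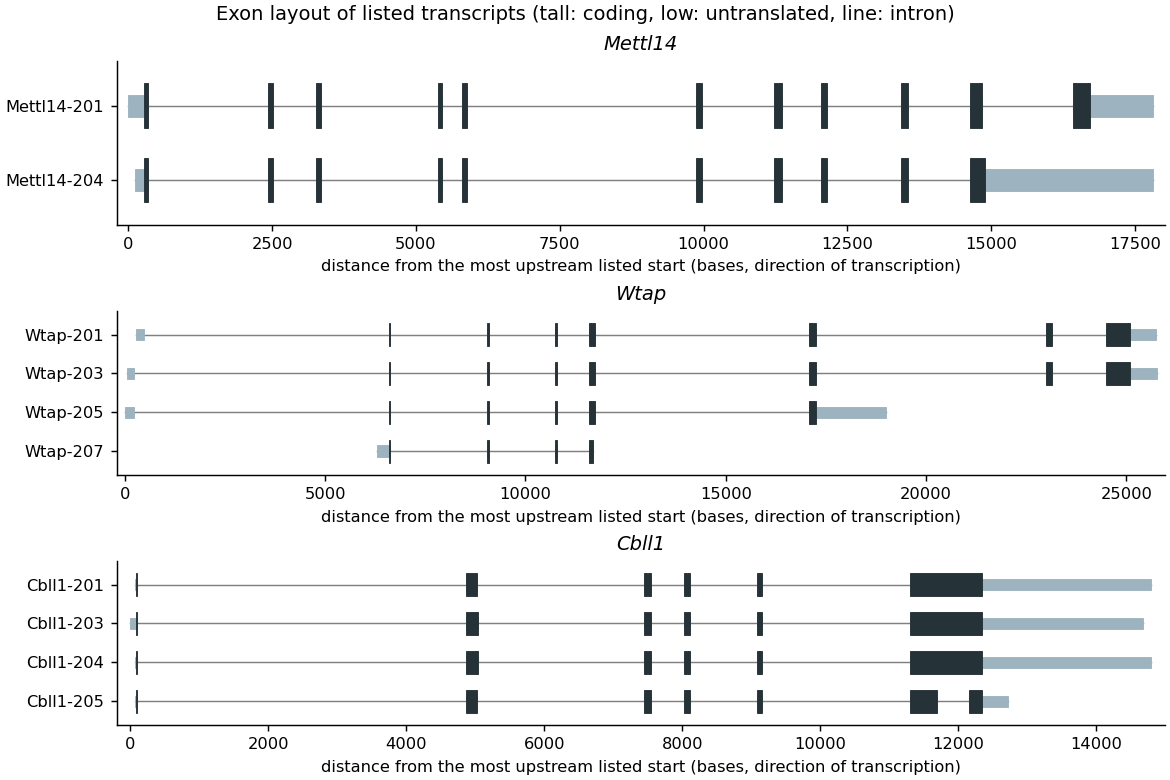
Exons of the listed transcripts of Mettl14, Wtap and Cbll1 by distance from the most upstream listed start (bases, in the direction of transcription). Tall boxes are coding, low boxes untranslated and lines introns, so that the retained last intron of Mettl14-204, the early end of Wtap-205 and the extra intron of Cbll1-205 can be seen.

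The samples carried the RNA of testis. Values are FPKM, in which the fragments of a transcript are divided by its length and by the fragments mapped in its library, and a gene is the sum of its listed transcripts. The summed FPKM per library was 382815 to 397147, with 24374 to 25372 transcripts above 0, and read depth is unknown. The 5 elongating spermatid markers summed to 11608, 16702 and 16947 FPKM in HFD1D replicates 1, 2 and 3. In HFD2D they summed to 13440 to 14404 FPKM, so HFD1D replicate 1 was the lowest library. The 6 spermatocyte markers summed to 719 to 782 FPKM in HFD1D and to 666 to 702 in HFD2D, without overlap, and 5 of the 6 had lower fitted values in HFD2D. In HFD2D replicate 1 the 4 listed epididymis markers summed to 98.4 FPKM, against 3.58 to 5.67 in the other 5 libraries, mostly from Crisp1 at 86.1 FPKM. Adam7 had 8.03 FPKM there and 0 in the other 5. Defb15 (1.51 FPKM) and Rnase10 (2.82 FPKM) were not raised in that library.

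Since FPKM is per length, the levels of the genes can be set side by side. In HFD1D the order was Fto (15.4 ± 0.414 FPKM, SD, n = 3), Virma, Cbll1, Wtap, Alkbh5, Mettl14, Rbm15, Mettl3, Zc3h13 and Rbm15b (3.10 ± 0.203 FPKM, SD, n = 3). The demethylase Fto was the most abundant and the substrate adaptor Rbm15b the least. Ranges over libraries overlapped between the neighbours Virma and Cbll1, Cbll1 and Wtap, Alkbh5 and Mettl14, Mettl3 and Zc3h13, and Zc3h13 and Rbm15b, so these pairs were not separated. In HFD2D Wtap stood before Cbll1, and Mettl3 was last behind Zc3h13 and Rbm15b. The pairs Fto and Virma, Wtap and Cbll1, Cbll1 and Alkbh5, Mettl14 and Rbm15, Zc3h13 and Rbm15b, and Rbm15b and Mettl3 overlapped there. The change of order between Cbll1 and Wtap, and that of Mettl3, therefore lay within overlapping ranges.

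**Figure D2:**
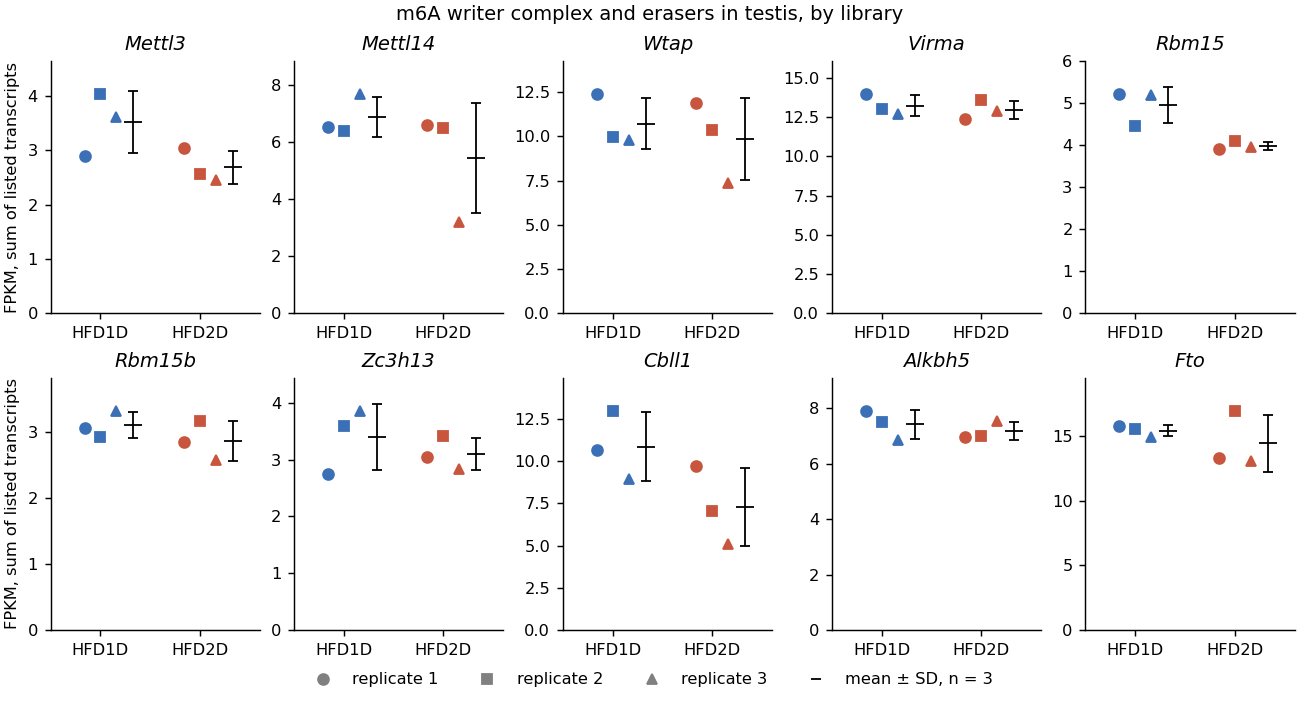
Summed FPKM of each of the 10 genes in the 3 HFD1D and the 3 HFD2D libraries, with mean and SD beside each group (n = 3). Rbm15 is the gene whose groups do not overlap (HFD1D 4.46 to 5.22 FPKM, HFD2D 3.91 to 4.09 FPKM), and the low HFD2D point of Mettl14 at 3.22 FPKM is replicate 3.

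Mettl3, the catalytic subunit (chr14:52294841-52305128, minus strand, mm10), had 2.90, 4.03 and 3.61 FPKM in HFD1D replicates 1, 2 and 3. In the HFD2D libraries it had 3.03, 2.57 and 2.46 FPKM. The groups overlapped only because HFD1D replicate 1 lay below HFD2D replicate 1. The difference HFD2D minus HFD1D of log2(FPKM + 1), the scale of every fold change given here, was -0.29 (SE 0.13, 95% interval -0.60 to 0.02), with an adjusted p of 0.441 over all genes tested (limma). In whole testis, fewer cells of a type and less RNA per cell cannot be told apart. An exon of Mettl3 overlaps Tox4 on the opposite strand, and the use of strand in counting is not given in the sources used here. Likewise, Cbll1 overlaps Gm29542 and Fto overlaps 4831440D22Rik and Gm45427.

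Mettl14, the partner of METTL3 (chr3:123368297-123386108, minus strand), had 6.55, 6.41 and 7.70 FPKM in HFD1D and 6.60, 6.52 and 3.22 FPKM in HFD2D. HFD2D replicates 1 and 2 lay within the HFD1D range and HFD2D replicate 3 was below all others. The difference was -0.34 (SE 0.24, 95% interval -0.92 to 0.25, adjusted p 0.598), and without HFD2D replicate 3 it was -0.06. Mettl14 stood at 2.26, 1.59 and 2.13 times the level of Mettl3 in the HFD1D libraries and at 2.17, 2.54 and 1.31 times in the HFD2D libraries. Both the lowest and the highest ratio were from HFD2D.

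Both Mettl14 transcripts separated the groups, in opposite directions. Full-length Mettl14-201 had 6.34, 5.80 and 7.40 FPKM in HFD1D and 5.55, 5.67 and 2.41 FPKM in HFD2D, so every HFD2D library was below every HFD1D library, 2 of them narrowly. Mettl14-204, which reads into the last intron, had 0.203, 0.610 and 0.295 FPKM in HFD1D and 1.05, 0.843 and 0.806 FPKM in HFD2D. Here every HFD2D library was above every HFD1D library, at levels near 1 FPKM or below. The difference was -0.50 for Mettl14-201 (SE 0.30, 95% interval -1.23 to 0.23, adjusted p 0.667), and -0.18 without HFD2D replicate 3. Mettl14-204 passed the filter of a mean above 0.5 FPKM only through HFD2D (mean 0.898 FPKM, against 0.369 FPKM in HFD1D), so its test is taken from the fit without a filter. There its difference was 0.48, with an adjusted p of 0.541 (limma). The size of this difference depends on the pseudocount and was 1.18 with a pseudocount of 0.1. Neither transcript passed the test.

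As a share of the gene, Mettl14-201 made up 96.9%, 90.5% and 96.2% of Mettl14 in HFD1D and 84.2%, 87.1% and 75.0% in HFD2D. All 3 HFD2D shares were below the lowest HFD1D share. The mean was 94.5 ± 3.52% in HFD1D and 82.1 ± 6.31% in HFD2D (SD, n = 3), 12.5 percentage points lower, with an exact two-sided permutation p of 0.1, the smallest that 3 against 3 libraries allow. Adjusted over the 6 genes with several transcripts, this p was 0.6. Leaving out 1 library at a time gave differences from -14.95 to -8.91 points, the smallest without HFD2D replicate 3. A share does not depend on the total of the library, and 2 of the 6 libraries, HFD1D replicate 2 (90.5%) and HFD2D replicate 2 (87.1%), were only a few points apart. The rest of Mettl14 is the intron-reading transcript alone, which passed the filter only through HFD2D. The split of the shares is therefore not a finding separate from the levels of the Mettl14 transcripts. How often shares split in this way in genes outside these 6 was not computed.

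**Figure D3:**
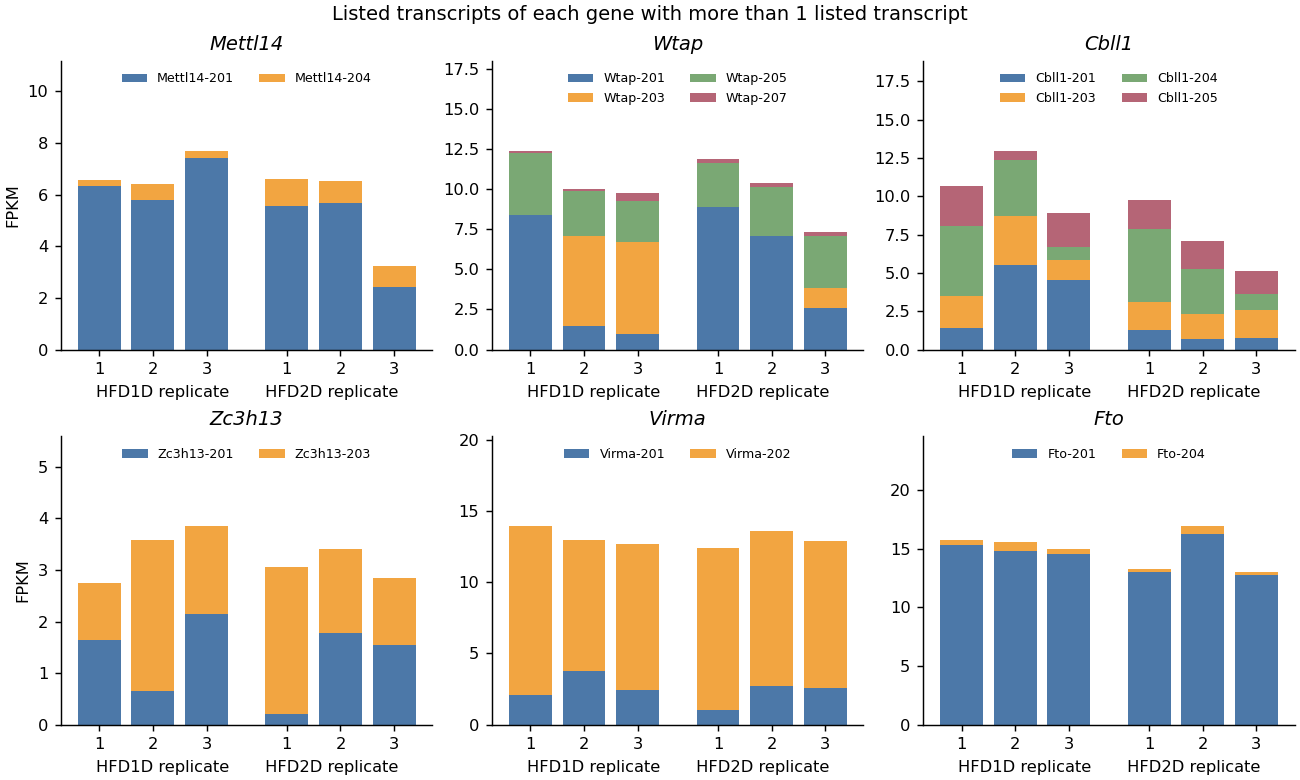
Stacked FPKM of the listed transcripts of the 6 genes with more than 1, a bar for each of the 3 HFD1D and the 3 HFD2D libraries. In Mettl14 the full-length transcript is lower and the intron-reading one higher in the HFD2D libraries (75.0% to 87.1% full length against 90.5% to 96.9%), and in Wtap and Cbll1 HFD1D replicate 1 lies with HFD2D replicates 1 and 2. The intron-reading transcript of Mettl14 is the rest of that gene and passed the filter only through HFD2D.

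Among the regulatory subunits, Rbm15 was the gene whose groups did not overlap. RBM15 binds RNA and, in human cells, brings the writer complex to its sites. Rbm15 (chr3:107325421-107333673, minus strand) had 5.22, 4.46 and 5.21 FPKM in HFD1D and 3.91, 4.09 and 3.97 FPKM in HFD2D. The HFD2D libraries were close together and all lay below the lowest HFD1D library. The difference was -0.25 (SE 0.09, 95% interval -0.47 to -0.04), with an unadjusted p of 0.0281 and an adjusted p of 0.390 (limma). It was -0.32 to -0.22 with any 1 library left out. Its paralog Rbm15b (chr9:106880918-106887428, minus strand, 1 exon) had 3.07, 2.92 and 3.32 FPKM in HFD1D and 2.84, 3.17 and 2.58 FPKM in HFD2D. The groups overlapped, with a difference of -0.09 (95% interval -0.33 to 0.15, adjusted p 0.730). Whether the 2 paralogs differ in response was not tested. Rbm15b overlaps exons of Manf on the same strand and of Dcaf1 on the other.

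Cbll1, also known as Hakai, is a RING-type ubiquitin ligase that associates with the writer complex. It had the most negative difference of the 10 genes (chr12:31484829-31499616, minus strand). Its levels were 10.6, 12.98 and 8.93 FPKM in HFD1D and 9.73, 7.05 and 5.12 FPKM in HFD2D. HFD2D replicates 2 and 3 were below all HFD1D libraries, and HFD2D replicate 1 was within their range. The difference was -0.54 (SE 0.23, 95% interval -1.09 to 0.01, adjusted p 0.431), and -0.74 to -0.34 with any 1 library left out.

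Of the Cbll1 transcripts, the one with the 3 extra bases of exon 3 alone, Cbll1-201, had 1.39, 5.55 and 4.53 FPKM in HFD1D and 1.25, 0.722 and 0.735 FPKM in HFD2D. The groups did not overlap, but HFD1D replicate 1 was next to the HFD2D libraries and far from the other 2 of its group. The difference was -1.23 (SE 0.41, 95% interval -2.25 to -0.21, unadjusted p 0.0263, adjusted p 0.578). Cbll1-204, with the 9 bases of exon 2 alone, had 4.56, 3.68 and 0.864 FPKM in HFD1D and 4.75, 2.96 and 1.03 FPKM in HFD2D, with a difference of -0.02 (adjusted p 0.994). In each group replicate 3 was low and the other two were high. Cbll1-203, with both additions, ranged from 1.33 to 3.15 FPKM and Cbll1-205, with neither, from 0.590 to 2.61 FPKM over the 6 libraries. Their differences were -0.17 (adjusted p 0.828) and 0.04 (adjusted p 0.978). The sum of the 3 long transcripts, chosen after the values were seen and not tested, was 8.04, 12.4 and 6.72 FPKM in HFD1D and 7.84, 5.26 and 3.61 FPKM in HFD2D, which overlapped.

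Wtap ties the core to the other subunits and to nuclear speckles (chr17:12966796-12994169, minus strand). The gene had 12.4, 9.98 and 9.78 FPKM in HFD1D and 11.9, 10.4 and 7.35 FPKM in HFD2D. The groups overlapped, with HFD2D replicate 3 below the rest, and the difference was -0.13 (95% interval -0.56 to 0.31, adjusted p 0.797). Without HFD2D replicate 3 it was 0.05. Wtap-201 had 8.39, 1.44 and 0.981 FPKM in HFD1D and 8.86, 7.09 and 2.60 FPKM in HFD2D. Wtap-203, with the other first exon, had 0.00165, 5.61 and 5.71 FPKM in HFD1D and 0.000873, 0.000769 and 1.24 FPKM in HFD2D. The 2 transcripts were thus exchanged: Wtap-203 was near 0 in the 3 libraries with over 7 FPKM of Wtap-201, which came from both groups. Their sum, chosen after the values were seen and not tested, was 8.39, 7.05 and 6.69 FPKM in HFD1D and 8.86, 7.09 and 3.84 FPKM in HFD2D. The differences were 0.89 for Wtap-201 (95% interval -0.88 to 2.65, adjusted p 0.744) and -1.44 for Wtap-203 (95% interval -3.54 to 0.67, adjusted p 0.665). Both sizes rest on single libraries: Wtap-201 ranged from 0.46 without HFD1D replicate 3 to 1.59 without HFD1D replicate 1, and Wtap-203 from -2.35 without HFD1D replicate 1 to -0.97 without HFD1D replicate 3. With a pseudocount of 0.1 the Wtap-203 difference was -2.65. The short Wtap-205 had 3.84, 2.81 and 2.54 FPKM in HFD1D and 2.77, 3.03 and 3.22 FPKM in HFD2D, with overlapping groups (difference -0.01, adjusted p 0.990). Wtap-207, an incomplete model, was at 0.118 to 0.553 FPKM and below the filter.

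Virma, the largest subunit, which in human cells directs methylation toward the end of mRNAs, had the difference nearest to 0 of the 10 genes (chr4:11485958-11550684, plus strand). It had 13.95, 12.98 and 12.7 FPKM in HFD1D and 12.4, 13.6 and 12.9 FPKM in HFD2D, fully overlapping. The difference was -0.03 (95% interval -0.20 to 0.15, adjusted p 0.896). Virma-202, of 24 exons and 1811 residues, carried 79.1 ± 7.17% of the gene in HFD1D and 83.8 ± 6.75% in HFD2D (SD, n = 3, exact permutation p 0.6). Virma-201, which ends at exon 13 with 1139 residues, was at 1.04 to 3.74 FPKM.

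Zc3h13, a zinc-finger subunit that keeps the complex in the nucleus of mouse embryonic stem cells, was at a low level (chr14:75284373-75344426, plus strand). It had 2.74, 3.58 and 3.86 FPKM in HFD1D and 3.05, 3.41 and 2.84 FPKM in HFD2D, with overlap and a difference of -0.09 (95% interval -0.40 to 0.22, adjusted p 0.781). Zc3h13-203, 1 of its 2 listed transcripts, took 39.8%, 81.5% and 44.4% of the gene in HFD1D and 93.1%, 47.6% and 45.6% in HFD2D. One library of each group stood high and the other two did not, so the share did not follow the groups (exact permutation p 0.5).

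Neither eraser separated the groups. Alkbh5 (chr11:60536381-60558512, plus strand) had 7.92, 7.49 and 6.86 FPKM in HFD1D and 6.98, 7.01 and 7.55 FPKM in HFD2D. The groups overlapped throughout, and the difference was -0.04 (95% interval -0.24 to 0.16, adjusted p 0.863). Fto (chr8:91313525-91668439, plus strand) had 15.7, 15.6 and 14.9 FPKM in HFD1D and 13.3, 16.9 and 13.02 FPKM in HFD2D. HFD2D held both the highest and the lowest libraries, and the difference was -0.10 (95% interval -0.36 to 0.17, adjusted p 0.729). Full-length Fto-201, of 502 residues, made up 96.5 ± 1.36% of the gene in HFD1D and 97.2 ± 1.32% in HFD2D (SD, n = 3). The remainder was Fto-204, at 0.240 to 0.786 FPKM. Fto stood at 1.99, 2.08 and 2.18 times the level of Alkbh5 in HFD1D and at 1.90, 2.42 and 1.72 times in HFD2D, with the HFD1D ratios inside the HFD2D range.

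Of the 10 genes, 0 passed the test at an adjusted p of 0.05, against 0.00726% of the 13769 genes tested, which is 1 gene, Plagl2, named here after its value was seen. With an ordinary F-test and adjustment the count was also 0 of 10. At an unadjusted p below 0.05 there was 1 of 10 in all, beside 11.9% of all genes, with 1 (Rbm15) lower in HFD2D, beside 6.59%, and 0 higher, beside 5.31%. Groups did not overlap for 1 of 10 with lower values, beside 11%, and for 0 with higher values, beside 8.34%. These shares were near those of all genes. The fitted difference was negative for 10 of 10, beside 49.8% of all genes, and the count was 8 without HFD1D replicate 1 and 9 without HFD2D replicate 1 or HFD2D replicate 3. The median difference was -0.11 over the 10 genes, -0.31 over the core, -0.11 over the regulatory subunits and -0.07 over the erasers, beside 0.0007 over all genes. Without HFD2D replicate 3 the median was -0.05 over the 10 genes, -0.15 over the core and -0.04 over the regulatory subunits. Genes measured in the same libraries are not independent of each other, and the list was not tested.

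**Figure D4:**
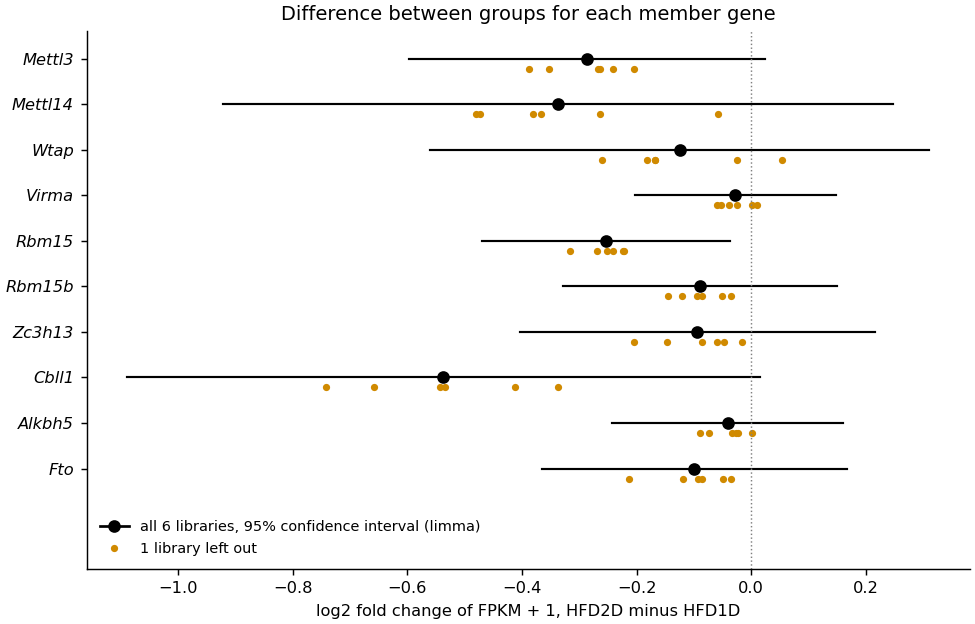
Difference HFD2D minus HFD1D of log2(FPKM + 1) for each of the 10 genes, with the 95% interval from limma, and small points for the value with 1 library left out. All 10 large points lie below 0, from -0.54 for Cbll1 to -0.03 for Virma, and the interval of 1 gene, Rbm15, ends below 0 before adjustment.

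Summed over the 8 writers, HFD1D libraries had 57.5, 57.3 and 55.1 FPKM and HFD2D libraries 53.5, 50.7 and 40.4 FPKM. Every HFD2D library was below every HFD1D library, and HFD2D replicate 3 was the lowest by a wide margin. The sum was not tested, and how often sums of other genes split in this way was not computed. Taken singly, 1 of the 8 writers (Rbm15) was lower without overlap, beside 11% of all genes. Summed over the 2 erasers, the libraries had 23.6, 23.1 and 21.8 FPKM in HFD1D and 20.3, 24.0 and 20.6 FPKM in HFD2D, which overlapped. The writer sum had the same split between groups as the spermatocyte markers, 719, 782 and 772 FPKM in HFD1D against 702, 675 and 666 FPKM in HFD2D. The other cell types did not all split. Sertoli sums (4 of 7 markers with lower fitted values in HFD2D) and Leydig sums (2 of 7 lower) overlapped between groups. The sums of spermatogonia and of round and elongating spermatids overlapped as well. Fitted values in HFD2D were lower for 5 of 6 spermatogonia markers, as for spermatocytes. They were lower for 2 of 5 round and 5 of 5 elongating spermatid markers. The peritubular myoid and endothelial sums split the other way. The 5 peritubular myoid markers summed to 36.1 to 37.9 FPKM in HFD1D and to 38.2 to 41.7 FPKM in HFD2D, and the 4 endothelial markers to 3.33 to 4.004 FPKM and 4.23 to 4.72 FPKM. All 5 myoid and all 4 endothelial markers had higher fitted values in HFD2D, as did the 4 listed macrophage and leukocyte markers, whose sums overlapped. The part of cell makeup in the writer values was not tested. In HFD2D replicate 1, the library with high Crisp1, Rbm15 and Virma had their lowest HFD2D values. The other writers had theirs in another HFD2D library. The part of epididymal tissue in the writer values was not tested.

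At the level of transcripts, 19 of the 20 passed the filter. Of these 0 passed the test, against 0.13% of 25322 transcripts, 0.0434% lower and 0.0869% higher. At an unadjusted p below 0.05 there were 2 in all (background 8.24%), of which 1 was lower (Cbll1-201, background 4.31%) and 1 higher (Mettl14-204, background 3.93%). Values did not overlap and were lower in HFD2D for 3 (Mettl14-201, Rbm15-201 and Cbll1-201, background 8.62%) and were higher for 1 (Mettl14-204, background 7.29%). Mettl14-204 entered both counts only through the group where it was high, so its part in them supports nothing. The fitted difference was negative for 14 and positive for 5, beside 49.4% negative over all transcripts. Fto-204, among the negative ones, passed the filter only through HFD1D (mean 0.542 FPKM, against 0.422 FPKM in HFD2D). Mettl14-204, among the positive ones, passed it only through HFD2D, so neither adds support to this count. The transcripts of Mettl3, Rbm15, Rbm15b and Alkbh5, all negative, repeat the values of their genes.

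The readers, proteins that bind m6A or RNA opened by it, lay on both sides of 0. Of 13 readers, 9 had lower and 4 higher fitted values, and 0 passed the test, with a median difference of -0.04. Ythdc1, the nuclear YTH reader, had a difference of 0.36 (95% interval 0.08 to 0.64, adjusted p 0.378), and Ythdf2, which directs methylated mRNAs to decay, had -0.25 (95% interval -0.44 to -0.05, adjusted p 0.390). Of 6 other methyltransferase genes for m6A or cap m6Am, 3 were lower and 3 higher with a median of -0.01 and 0 past the test. Trmt112, an activator of several methyltransferases, had 19.8, 20.1 and 18.9 FPKM in HFD1D and 16.2, 15.8 and 19.1 FPKM in HFD2D, and only HFD2D replicate 3 reached the HFD1D range (difference -0.19, adjusted p 0.444). Mettl4 had 11.04, 10.7 and 10.5 FPKM in HFD1D and 9.80, 10.3 and 9.91 FPKM in HFD2D, without overlap by a narrow gap (difference -0.09, adjusted p 0.612). Whether any of these lists differs from the writers was not tested.

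**Figure D5:**
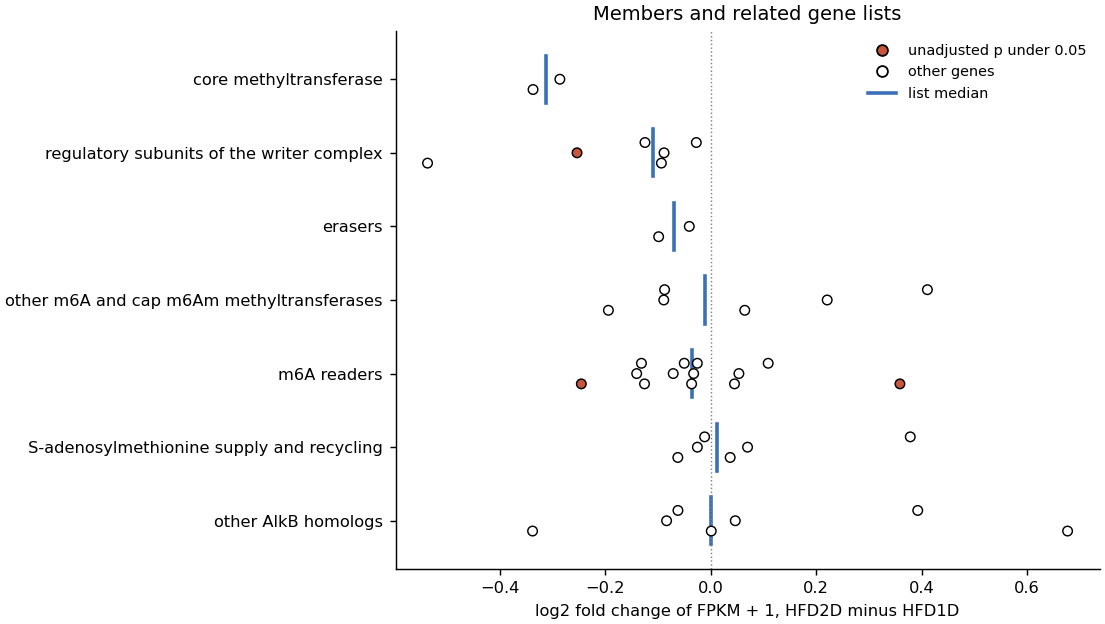
Difference HFD2D minus HFD1D of log2(FPKM + 1) for each gene of the writer, eraser and related lists, with the median of each list as a bar and filled points for an unadjusted p under 0.05. Core, regulatory subunits and erasers lie at or below -0.03, with medians of -0.31, -0.11 and -0.07 (-0.15, -0.04 and -0.05 without HFD2D replicate 3). Wtap, Virma and Alkbh5 changed sign with 1 library left out. The readers (median -0.04), the other methyltransferases, the S-adenosylmethionine genes and the other AlkB homologs lie on both sides of 0.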

How the data were processed

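Testis RNA of 6 mice, 3 per group, was analysed, with groups taken from the sample labels. By the methods of the study, the authors selected poly(A) RNA, built stranded libraries and obtained transcript levels with StringTie and Ballgown. The deposited values are FPKM for 27120 transcripts per library, on mm10 per the submitters' processing notes. The aligner is not given in the sources used here. Without counts, depth is unknown and counting intervals could not be computed.

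Transcripts were matched without version to GENCODE M21 (27018 matched, 102 not), which also gave sequences and coordinates. Not all transcript sequences are reported here. A gene is the sum of its listed transcripts. Genes and transcripts whose mean exceeded 0.5 FPKM in either group were tested as log2(FPKM + 1) with limma 3.58.1 in R 4.3.3 (variance trend, two-sided, group as the only factor), with Benjamini-Hochberg adjustment over all features. Isoform shares were compared by exact permutation of the 6 libraries. Tables were made with Python 3.11.15 and pandas 2.3.3.

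Named are the 10 genes, their listed transcripts, the 2 genes of smallest p in each related list and the 3 genes nearest to Mettl3. Members and lists were chosen with earlier results of these data known. Alternatives were another pseudocount, filter, scaling, test or replicate block, and leaving out each library.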

Additional observations from a re-analysis of the deposited data

How the results depend on the processing

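Over 15 alternatives for each of the 10 genes, 0 of 150 recomputed differences passed the threshold and 4 changed sign, and of 263 transcript differences 0 passed and 14 changed sign. The Zc3h13-203 difference became -0.0040 with quantile normalization. With 1 library left out, gene differences that changed sign ran from -0.26 to 0.053 for Wtap, from -0.06 to 0.0095 for Virma and from -0.0898 to 0.00088 for Alkbh5. Without a change of sign, Rbm15b ran from -0.14 to -0.03, Zc3h13 from -0.21 to -0.02 and Fto from -0.21 to -0.04. Transcript differences ran from -0.10 to 0.12 for Wtap-205, -0.0289 to 0.14 for Virma-202, -0.50 to 0.15 for Zc3h13-201, -0.20 to 0.26 for Zc3h13-203, -0.38 to 0.0384 for Cbll1-203, -0.51 to 0.39 for Cbll1-204, -0.32 to 0.27 for Cbll1-205 and -0.0898 to 0.00088 for Alkbh5-201. Share differences ran from -8.58 to 20.02 points for Zc3h13-203 and from -0.059 to 1.47 points for Fto-201. The median over the 10 genes ran from -0.19 to -0.053. Over all features, 1 gene passed in the main test, 0 without a filter and with the F-test, 3 with a filter above 1 FPKM, with median-ratio rescaling and without the variance trend, and 0 to 3 with 1 library left out, while 33 transcripts became 11 to 86 with 1 library left out. The cause was not tested. Replicate numbers did not pair the samples (correlations of same-numbered deviations -0.0759, -0.00177 and -0.163). A replicate block left 0 genes and 1 transcript past the threshold, and 0 of the 10 genes passed under it as before. Depth is unknown, so the precision of transcripts below 1 FPKM cannot be given.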

Other observations

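Enzymes that supply and recycle S-adenosylmethionine, the methyl donor of the writers, stood on both sides of 0. Of 6 genes, 3 had lower and 3 higher fitted values in HFD2D, 0 passed the test (limma, smallest adjusted p 0.643) and the median difference was 0.01. Ahcyl1, a relative of the enzyme that clears the spent donor, had 21.3, 12.7 and 8.15 FPKM in HFD1D and 19.0, 15.4 and 17.6 FPKM in HFD2D, with HFD1D on both ends of the range (difference 0.38, adjusted p 0.643). Adk, adenosine kinase, had 14.3, 14.2 and 13.6 FPKM in HFD1D and 13.4, 12.5 and 14.3 FPKM in HFD2D, which overlapped (difference -0.06, adjusted p 0.744). Of 7 other AlkB homologs, the family of the erasers, 3 were lower and 4 higher, 0 passed and the median was 0.0007. Alkbh6 had 1.52, 1.79 and 1.85 FPKM in HFD1D and 1.69, 3.57 and 2.68 FPKM in HFD2D, and HFD2D replicate 1 lay within the HFD1D range (difference 0.39, adjusted p 0.479). Alkbh1, an oxygenase for nucleic acids, had 1.36, 0.965 and 1.56 FPKM in HFD1D and 1.27, 0.535 and 0.688 FPKM in HFD2D, again with HFD2D replicate 1 inside the HFD1D range (difference -0.34, adjusted p 0.506).

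The genes nearest to Mettl3 across the 6 libraries, by the distance between centred log2(FPKM + 1) values among 8908 genes, were Gpn1 (distance 0.094), Rrm2 (0.096) and Fmr1nb (0.099), beside a median distance of 0.67. Gpn1, a GTPase for nuclear import of RNA polymerase, had 3.19, 4.60 and 4.22 FPKM in HFD1D and 3.38, 2.97 and 2.61 FPKM in HFD2D. Rrm2, a subunit of ribonucleotide reductase, had 9.11, 12.3 and 11.1 FPKM in HFD1D and 9.39, 8.95 and 8.40 FPKM in HFD2D. As with Mettl3, HFD1D replicate 1 was the lowest of its group and lay beside HFD2D replicate 1. This likeness follows from the choice of the genes by their distance to Mettl3 in the same libraries. Fmr1nb had 16.5, 20.5 and 18.4 FPKM in HFD1D and 16.5, 14.9 and 14.8 FPKM in HFD2D. Mettl14 itself ranked 4411 in this order and Zc3h13, the nearest of the other writers that met the criteria, ranked 998.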
